A study of Mus musculus with 56 samples.

Results

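The paws of mice that received antibodies against TNF and IL-6 together (13 libraries) were compared with those of mice that received the antibody against IL-6 alone (13 libraries). These are 26 of the 56 libraries of the study, taken by their treatment labels, and 14468 of 53431 features had a mean of at least 1 FPKM (fragments scaled to transcript length and to the mapped fragments of the library) in either group and were tested. All mice were male DBA/1, and RNA came from whole front paws. Collagen-induced arthritis (CIA), a model of rheumatoid arthritis, was started by injecting chicken type II collagen on days 1 and 21. From day 21 the combination mice were given the anti-TNF clone XT3.11 at 30 mg/kg and the anti-IL-6 clone MP5-20F3 at 10 mg/kg, and the anti-IL-6 mice were given MP5-20F3 at 10 mg/kg. The remaining mice with CIA received XT3.11 at 30 mg/kg (anti-TNF, 13 mice) or an IgG1 isotype antibody at 30 mg/kg (isotype, 13 mice), and 4 mice had no CIA. Antibodies were injected into the peritoneum 2 times per week for 5 weeks, and paws were taken on day 91, after the course had ended. The sources used here do not give the age of the mice or the hour of day at which paws were taken. A whole paw holds skin, muscle, bone, cartilage, tendon, synovium and blood cells, so in these bulk samples fewer cells of a type and less RNA per cell cannot be told apart.

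TNF and IL-6 are cytokines that drive joint inflammation. TNF acts through receptors that lead to NF-kB, and IL-6 acts through Il6ra and the shared chain Il6st, which lead to STAT3. Most of the genes that passed the test here, though not all, belong to another system, the circadian clock. In this feedback loop, Arntl (BMAL1) pairs with Clock or Npas2 and switches on genes through the E-box. Among these genes are the Period and Cryptochrome repressors, the nuclear receptors Nr1d1 and Nr1d2 (REV-ERB alpha and beta), and the transcription factors Dbp, Tef and Hlf. Nr1d1 and Nr1d2 in turn hold down Arntl, Npas2 and Nfil3 through ROR elements, and Nfil3 competes with Dbp, Tef and Hlf for the D-box. Transcripts of E-box genes and of genes with ROR elements therefore peak at different times of day in most mouse tissues, joints and muscle among them.

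Limma called 14 of the 14468 genes at an adjusted p under 0.05, which is 0.0968% of those tested. Of these, 8 were higher in the combination group (0.0553%) and 6 were lower (0.0415%). The higher genes were Dbp, Tef, Nr1d1, Nr1d2, Per3, Bhlhe41, Atg14 and Hdac11, and the lower ones were Npas2, Nfil3, Fosl1, Leo1, Akirin1 and Rrs1. The clock lists hold 8 of the 14. The groups overlapped for every one of the genes tested, the called ones included. At an unadjusted p under 0.05 there were 1668 genes (11.5%), with 345 higher (2.38%) and 1323 lower (9.14%) in the combination group, and 65.97% of all differences tested lay below 0. The median difference over all genes was -0.045 on the log2(FPKM + 1) scale.

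The promoters of 4 called clock genes are shown because they hold the letters of the E-box, the D-box or the ROR element. Each is the 250 bases before the gene's start in RefSeq (GRCm38.p6), written 5′ to 3′ along the gene, with the motif in capitals. Tef (the first of 2 listed promoters, chr15:81802423-81802672, plus strand) and Bhlhe41 (chr6:145865421-145865670, minus strand) hold the E-box CACGTG, which starts 127 and 153 bases before the start. Per3 (chr4:151044666-151044915, minus strand) holds the D-box TTANGTAA at 205 and at 158 bases. Nfil3 (chr13:52981040-52981289, minus strand) holds the ROR element TAGGTCA, read here on the other strand, at 12 bases. RefSeq and the GENCODE annotation used for gene positions place some starts differently, so that the Tef window lies inside the GENCODE gene and the Bhlhe41 and Nfil3 windows reach into theirs.
Tef: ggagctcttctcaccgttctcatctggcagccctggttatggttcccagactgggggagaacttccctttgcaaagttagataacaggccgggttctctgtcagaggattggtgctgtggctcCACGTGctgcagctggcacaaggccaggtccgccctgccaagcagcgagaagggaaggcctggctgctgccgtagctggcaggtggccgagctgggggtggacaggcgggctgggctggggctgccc
Bhlhe41: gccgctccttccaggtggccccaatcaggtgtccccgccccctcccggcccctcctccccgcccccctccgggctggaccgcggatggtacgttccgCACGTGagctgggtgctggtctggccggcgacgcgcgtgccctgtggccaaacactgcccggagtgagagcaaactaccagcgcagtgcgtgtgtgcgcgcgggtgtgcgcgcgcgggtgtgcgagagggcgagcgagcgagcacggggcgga
Per3: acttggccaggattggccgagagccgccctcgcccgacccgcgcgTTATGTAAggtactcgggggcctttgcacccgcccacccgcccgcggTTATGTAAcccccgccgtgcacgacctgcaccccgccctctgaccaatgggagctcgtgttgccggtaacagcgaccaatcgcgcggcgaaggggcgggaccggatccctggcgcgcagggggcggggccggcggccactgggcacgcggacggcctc
Nfil3: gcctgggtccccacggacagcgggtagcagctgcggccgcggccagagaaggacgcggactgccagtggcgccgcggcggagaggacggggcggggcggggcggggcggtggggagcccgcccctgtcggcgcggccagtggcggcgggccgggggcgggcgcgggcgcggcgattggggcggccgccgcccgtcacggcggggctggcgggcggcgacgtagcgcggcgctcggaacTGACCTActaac
Both strands were searched for these 3 motifs and for the AP-1 site TGANTCA, none of which overlapped another in these promoters. RefSeq promoters were found for 12 of the 14 called genes, all but Fosl1 and Rrs1. The E-box was in 2 of the 12 (Tef, in both listed promoters, and Bhlhe41), the D-box in 1 (Per3), the ROR element in 2 (Nfil3 and Leo1) and the AP-1 site in 0. Among 32851 promoters of this length, 6.02% hold the E-box, 2.06% the D-box, 2.23% the ROR element and 6.75% the AP-1 site. These shares are per promoter, whereas the 12 were counted per gene. Counted per gene, with a match in any listed promoter, the E-box was in 1854 of 27025 genes and the D-box in 659. The ROR element was in 689 of them and the AP-1 site in 2113. A match describes letters in this window, not a bound site.

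Dbp (ENSMUSG00000059824.12), a D-box activator and among the most rhythmic transcripts of mouse tissues, had the largest difference among the called genes. It had a lowest value of 18.5, a median of 60.0 and a highest value of 113.7 FPKM in the combination group, against 5.77, 14.5 and 42.8 FPKM in the anti-IL-6 group. All 13 combination libraries lay above the anti-IL-6 median, 9 of them above every anti-IL-6 library, and 8 anti-IL-6 libraries lay below every combination library. The means were 60.5 ± 28.6 FPKM in the combination group and 18.0 ± 10.8 FPKM in the anti-IL-6 group (SD, n = 13 each). Their difference was 1.73 ± 0.248 on the log2 scale (± is the SE for differences, limma adjusted p = 4.53e-05). Tef (ENSMUSG00000022389.15), the thyrotroph embryonic factor of the same family, ran from 28.6 through a median of 40.6 up to 56.9 FPKM in the combination group, against 14.5, 21.7 and 42.7 FPKM in the anti-IL-6 group. The log2 difference of Tef was 0.84 ± 0.121 (limma adjusted p = 4.53e-05), and 10 anti-IL-6 libraries lay below every combination library. Hlf, the remaining member of the family, was not called. It averaged 3.77 ± 0.84 FPKM in the combination group and 3.00 ± 1.11 FPKM in the anti-IL-6 group, with a log2 difference of 0.29 (95% interval 0.049 to 0.522, limma adjusted p = 0.356). On GRCm38, Dbp lies on chromosome 7 (45705088 to 45710203) and Tef on chromosome 15 (81802421 to 81826863), both on the plus strand.

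**Figure D1:**
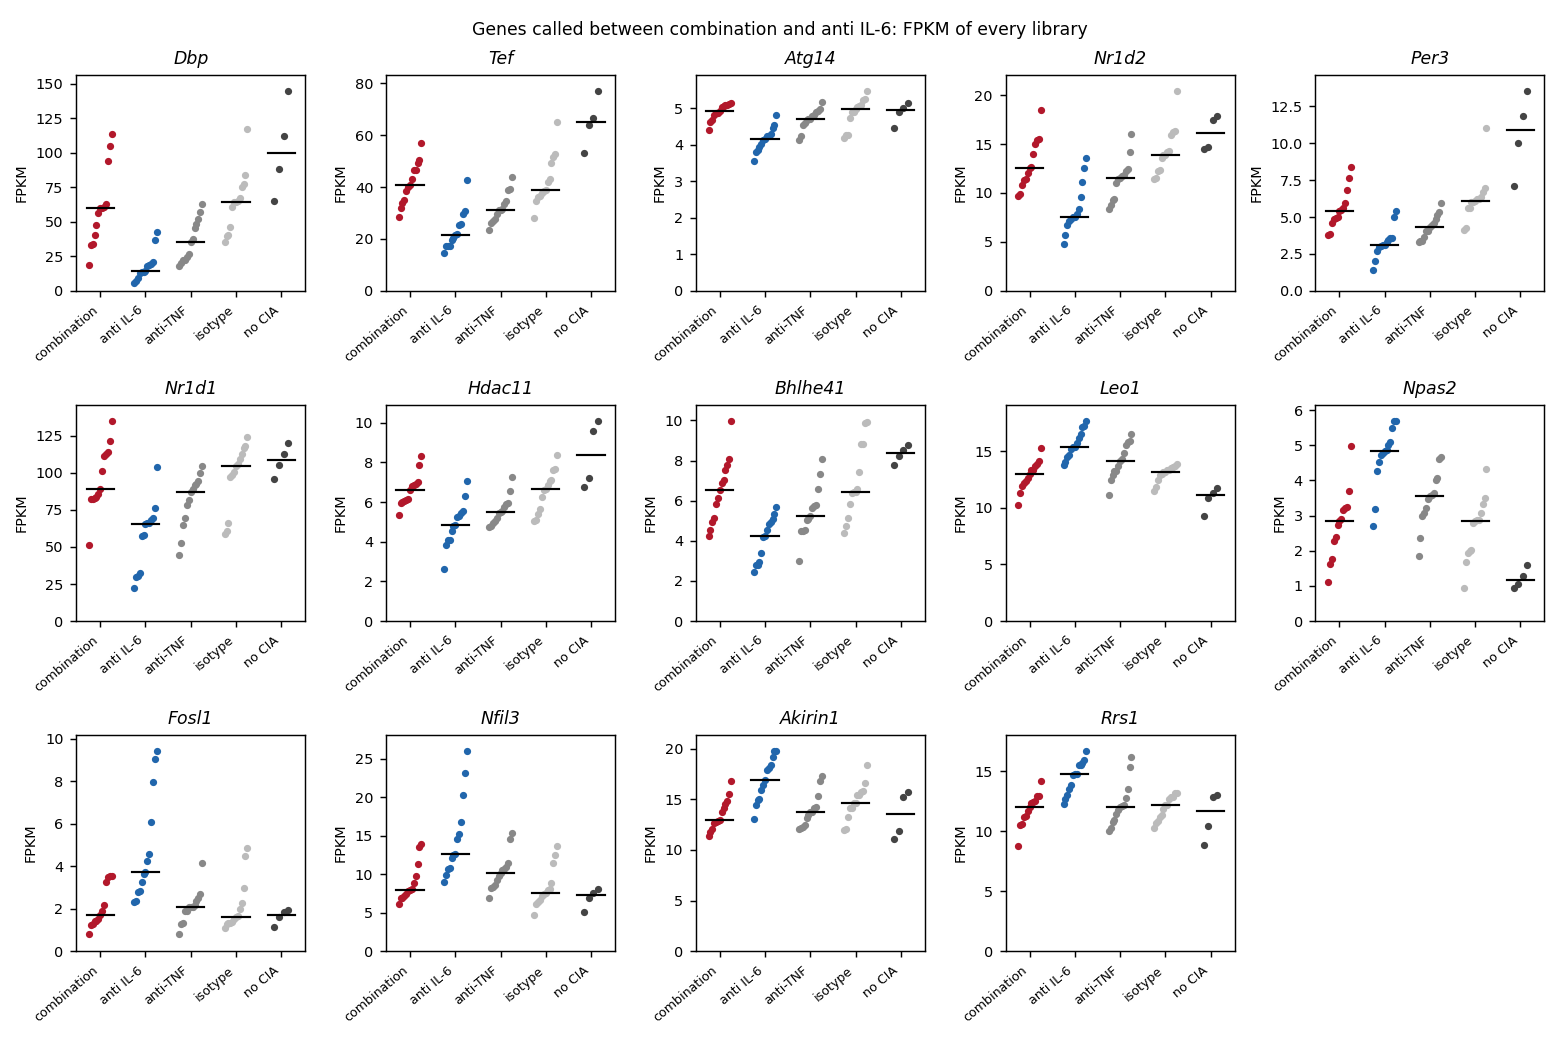
FPKM of every library (points, sorted within a group) for the 14 genes called between combination and anti IL-6, with group medians as black lines, in the 5 groups of the study. The combination and anti IL-6 points overlap in every panel, and the anti IL-6 mean is the lowest or the highest of the 5 group means in 14 of 14 genes.

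The repressors that E-boxes switch on were higher as well, though not all of them. Nr1d1 (ENSMUSG00000020889.11), a haem-binding repressor of Arntl, had a lowest value of 51.6, a median of 88.8 and a highest value of 135.2 FPKM in the combination group, against 22.3, 65.3 and 103.9 FPKM in the anti-IL-6 group. Its log2 difference was 0.82 ± 0.169 (limma adjusted p = 0.0191). Nr1d2 (ENSMUSG00000021775.11), its close relative, had 9.64, 12.6 and 18.4 FPKM at the same points in the combination group, against 4.79, 7.54 and 13.5 FPKM in the anti-IL-6 group, a log2 difference of 0.59 ± 0.108 (limma adjusted p = 0.00408). The groups overlapped for both, with 5 combination libraries above every anti-IL-6 library in each case. Per3 (ENSMUSG00000028957.12), a Period protein that serves more as a clock output than as a core repressor, had 3.79, 5.40 and 8.41 FPKM in the combination group, against 1.39, 3.13 and 5.44 FPKM in the anti-IL-6 group. Per3 had a log2 difference of 0.63 ± 0.117 (limma adjusted p = 0.00408), and 11 anti-IL-6 libraries lay below every combination library. Bhlhe41 (DEC2, ENSMUSG00000030256.11), which represses Arntl and Clock at E-boxes, had 4.26, 6.53 and 9.99 FPKM in the combination group, against 2.45, 4.23 and 5.68 FPKM in the anti-IL-6 group. Bhlhe41 had a log2 difference of 0.56 ± 0.120 (limma adjusted p = 0.0258). Nr1d1 lies on chromosome 11 (98767932 to 98775333), Nr1d2 on chromosome 14 (18204054 to 18239127), Per3 on chromosome 4 (151003652 to 151044665) and Bhlhe41 on chromosome 6 (145858243 to 145865558), each on the minus strand.

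On the opposite arm, Npas2 and Nfil3 were lower in the combination group. Npas2 (ENSMUSG00000026077.15), which can take the place of Clock beside Arntl, had 1.10, 2.85 and 4.97 FPKM as its lowest, median and highest value in the combination group, against 2.70, 4.83 and 5.70 FPKM in the anti-IL-6 group. In 12 of 13 combination libraries it lay below the anti-IL-6 median, and the log2 difference was -0.62 ± 0.126 (limma adjusted p = 0.0159). Nfil3 (E4BP4, ENSMUSG00000056749.7), the D-box repressor, had 6.11, 7.96 and 13.9 FPKM in the combination group, against 8.98, 12.7 and 26.0 FPKM in the anti-IL-6 group. Its log2 difference was -0.65 ± 0.141 (limma adjusted p = 0.0284), with 9 combination libraries below every anti-IL-6 library. Npas2 lies on chromosome 1 (39193731 to 39363236, plus strand) and Nfil3 on chromosome 13 (52967209 to 52981073, minus strand).

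Over the list of 12 genes that peak with E-box activation, all tested, 6 were higher and 0 lower (background 0.0553% and 0.0415%), 11 had differences above 0, and the median log2 difference was 0.58 against -0.045 over all genes. Of the 8 listed activators and antiphase genes, 7 were tested (all but Rorb, at a mean of 0.106 FPKM in the combination group and 0.099 FPKM in the anti-IL-6 group). In that list 0 were higher, 2 were lower and 5 of 7 differences lay below 0, with a median of -0.305. The counts describe these lists and test nothing. The uncalled members were not alike. Ciart (CHRONO), a repressor of Arntl and Clock, averaged 9.59 ± 3.92 FPKM in the combination group and 5.69 ± 2.34 FPKM in the anti-IL-6 group, with a log2 difference of 0.66 ± 0.187 and an interval of 0.289 to 1.039 (limma adjusted p = 0.188). Arntl averaged 10.2 ± 3.12 FPKM in the combination group and 14.1 ± 2.91 FPKM in the anti-IL-6 group, a log2 difference of -0.45 with an interval of -0.674 to -0.223 (limma adjusted p = 0.135), and Cry1 and Clock had differences of -0.305 and -0.23 (limma adjusted p = 0.188 and 0.332). Per1 and Per2, the core Period repressors, had values near 0, at -0.07 (interval -0.354 to 0.218) and 0.08 (interval -0.183 to 0.348). Cry2 stood at 0.225, Bhlhe40 at 0.11 and Rora at 0.02, with intervals that reach 0 for all but Cry2. Among 9 tested outputs of the clock, 0 were called, and the smallest p belonged to Noct, a circadian NADP(H) phosphatase, at -0.34 (limma adjusted p = 0.183).

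**Figure D2:**
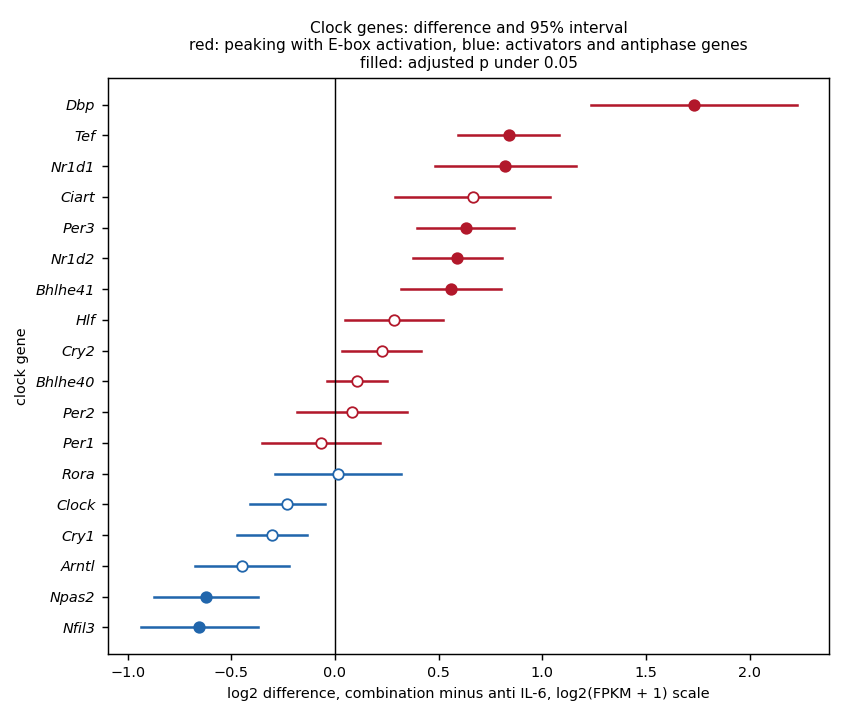
Log2 difference (combination minus anti IL-6, on the log2(FPKM + 1) scale) of 18 tested clock genes, with 95% intervals from the limma fit. Filled points passed the adjusted p. Dbp stands highest at 1.73, Per1 and Per2 lie near 0, and Npas2 and Nfil3 lie lowest.

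The clock genes also varied together among mice of the same treatment, which the comparison of groups does not use. In the combination group, log2(FPKM + 1) of Dbp had a Pearson r of 0.86 with Per3 and 0.85 with Tef, and a Spearman rho of 0.89 and 0.80 (2-sided permutation p = 0.00018 and 0.00025 for r, 0.0001 and 0.00175 for rho, n = 13). In the anti-IL-6 group r was 0.96 with Per3 and 0.86 with Tef, with rho of 0.86 and 0.83 (permutation p = 1e-05, which no set of 100000 resamples can go below, and 0.00012 for r, 0.00037 and 0.00086 for rho, n = 13). Over the 30 relations computed, the adjusted p for r were 0.0009 and 0.00107 in the combination group and 0.0003 and 0.00072 in the anti-IL-6 group. Without the 2 mice farthest from the median of Dbp, r with Per3 was 0.78 in the combination group and 0.91 in the anti-IL-6 group, and r with Tef was 0.75 and 0.71. Nfil3 ran the other way, with r of -0.64 and rho of -0.76 in the combination group and r of -0.83 and rho of -0.91 in the anti-IL-6 group (permutation p = 0.0177 and 0.0029, and 0.00045 and 8e-05, adjusted p = 0.0313 and 0.00791, and 0.00169 and 0.0015, n = 13 each). Without the 2 farthest mice r was -0.60 in the combination group and -0.77 in the anti-IL-6 group.

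Npas2 and Arntl behaved less evenly. Npas2 had r of -0.81 with Dbp in the combination group (permutation p = 0.00111, adjusted p = 0.00333, rho -0.68, permutation p = 0.0128, n = 13) and r of -0.69 in the anti-IL-6 group (permutation p = 0.0103, adjusted p = 0.022, rho -0.55, permutation p = 0.0552, n = 13). Without the 2 farthest mice these were -0.67 and -0.04, so in the anti-IL-6 group the relation rests on those mice. Arntl had r of -0.79 and rho of -0.66 with Dbp in the combination group (permutation p = 0.0016 and 0.0169, adjusted p = 0.00436 and 0.0337, n = 13), with r of -0.48 without the 2 farthest mice. In the anti-IL-6 group Arntl had r of -0.06 and rho of -0.16 (permutation p = 0.856 and 0.591, n = 13). Whether the groups differ in these relations was not tested.

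**Figure D3:**
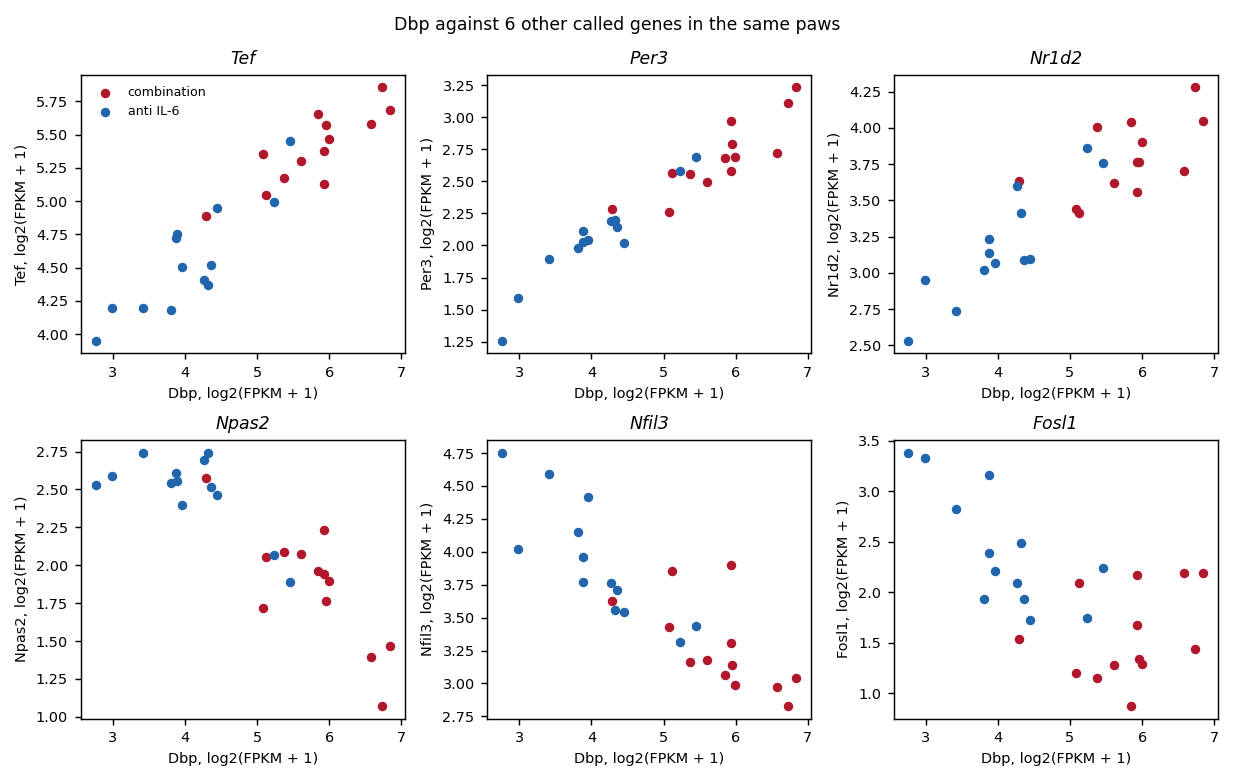
Dbp against 6 other called genes, each as log2(FPKM + 1), 1 point per paw library in the combination (red) and anti IL-6 (blue) groups. Tef and Per3 climb with Dbp in both groups and Nfil3 declines. Nr1d2 has an r of 0.89 in the anti IL-6 group and a weaker 0.60 in the combination group (permutation test, adjusted p = 0.00072 and 0.0503). Fosl1 declines with Dbp in the anti IL-6 group, where r is -0.74, and has an r of 0.31 in the combination group.

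Likeness to Dbp was also measured over all tested genes, as the Pearson r over the 26 libraries after each group's mean was taken off. The 10 highest were Per3 (0.91), Tef (0.84), Nr1d2 (0.77), Ciart (0.74), Nr1d1 (0.69), Rhebl1 (0.66), Shf (0.63), Clcn2 (0.62), Hlf (0.61) and Gstm6 (0.60), and 6 of these are on the E-box list. The 5 lowest were Nfil3 (-0.75), Npas2 (-0.73), Ms4a4d (-0.69), Tubd1 (-0.68) and Tmem26 (-0.67). Shf, Clcn2 and Gstm6 followed Dbp among mice but had group differences of -0.04, 0.10 and 0.03. These values describe 26 libraries that share 2 groups and carry no test.

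Where the groups stood beside the rest of the study is given as levels only, because comparisons with the other groups would share libraries. Dbp had medians of 60.0 FPKM in the combination group, 14.5 FPKM under anti-IL-6, 35.4 FPKM under anti-TNF, 64.2 FPKM under isotype and 100.1 FPKM without CIA, and isotype libraries spanned 35.6 to 117.5 FPKM. For all 14 called genes the anti-IL-6 mean was at the end of the 5 group means, lowest for the 8 higher genes and highest for the 6 lower ones. Since the genes were called by a contrast with that group, this placing describes them only. The combination mean of the 14 genes lay between 89.1% (Per3) and 106.5% (Nfil3) of the isotype mean. The anti-IL-6 mean was 28.0% of the isotype mean for Dbp, 54.9% for Tef and 52.5% for Per3, and 178.2% for Npas2 and 224.1% for Fosl1. Neighbours in the order were often within their spread, as for Dbp in combination (60.5 ± 28.6 FPKM) and isotype paws (64.4 ± 22.1 FPKM).

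The groups also differ in mouse number. Titles carry numbers 28 to 42 in the combination group, 1 to 14 and 20 in the anti-IL-6 group, 2 to 27 under anti-TNF, 43 to 55 under isotype and 56 to 60 without CIA, so no combination mouse has a number below that of an anti-IL-6 mouse. The order of the 5 groups by median Dbp is the same as their order by lowest mouse number. The anti-IL-6 mouse numbered 20, which stands among anti-TNF mice, had the highest Dbp (42.8 FPKM) and Tef (42.7 FPKM) and the lowest Npas2 (2.70 FPKM) of its group. In the same block, the anti-TNF mice numbered 19 and 21 had 20.1 and 22.7 FPKM of Dbp. The anti-TNF mouse numbered 2, which stands among anti-IL-6 mice, had 37.2 FPKM of Dbp, and anti-IL-6 mice 1 and 3 had 19.5 and 19.1 FPKM. In the order of deposit, however, mouse 20 is anti-IL-6 replicate 2, between mice 1 and 3. Mouse 2 is anti-TNF replicate 6, between mice 19 and 21. Each thus fills the place of the other, and whether their numbers or treatment labels were exchanged was not tested. These 2 mice therefore cannot separate treatment from mouse number. Within the combination group, mouse number had r of 0.08 and rho of 0.20 with Dbp (permutation p = 0.79 and 0.506, adjusted p = 0.847 and 0.659, n = 13), and within the anti-IL-6 group r of 0.19 and rho of -0.01 (permutation p = 0.541 and 0.978, adjusted p = 0.649 and 0.978, n = 13). The values were 0.29 and 0.51 under anti-TNF (permutation p = 0.355 and 0.0815, adjusted p = 0.355 and 0.146) and 0.45 and 0.43 under isotype (permutation p = 0.123 and 0.146, adjusted p = 0.245 and 0.146, n = 13 each). Without the 2 farthest numbers r was 0.20, -0.22, 0.70 and 0.36 in these groups. With mouse number as a linear term, an alternative added after the data were seen, limma called 0 genes (681 at an unadjusted p under 0.05). The log2 difference of Dbp was then 1.02 ± 0.514 (limma adjusted p = 0.97), with an error larger than the 0.248 without the term. The median of the E-box list was 0.29 in that fit, with 0 of 12 genes at an unadjusted p under 0.05, and that of the antiphase list -0.25, with 1 of 7. Treatment and whatever else follows mouse number cannot be told apart here.

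**Figure D4:**
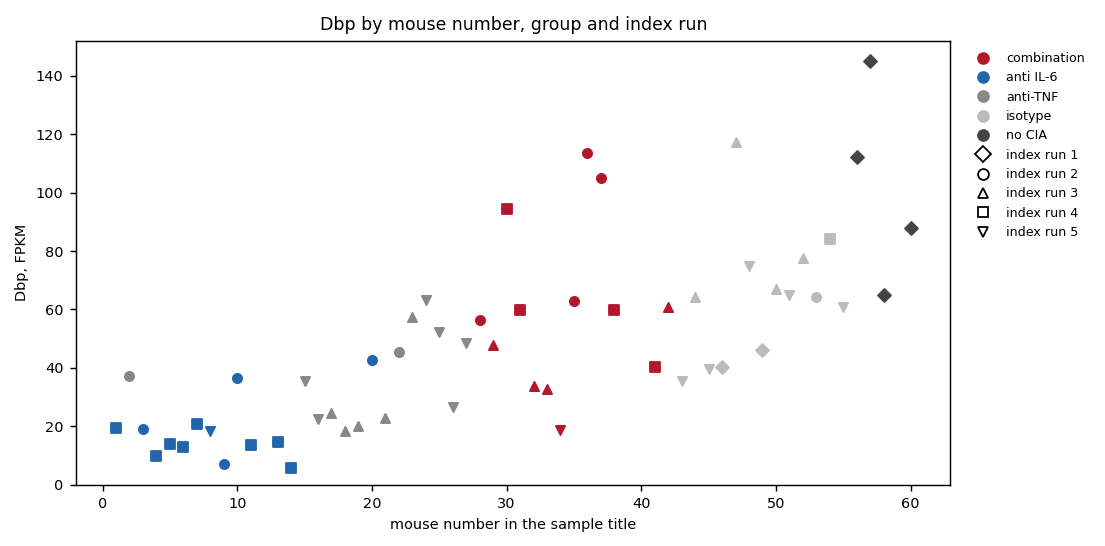
Dbp (FPKM) of each of the 56 libraries against the mouse number in its title, coloured by group, with marker shapes for the 5 index runs. Combination mice 28 to 42 lie at 18.5 to 113.7 FPKM and anti IL-6 mice 1 to 14 and 20 at 5.77 to 42.8 FPKM, with no overlap in number.

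Index numbers in the titles fall into 5 runs within which mouse numbers ascend (1 isotype mouse is out of order), and both groups occur in 3 of them. All 14 called genes kept their direction in run 2 (4 combination and 4 anti-IL-6 libraries), run 4 (4 and 8) and run 5 (1 and 1). Since the genes were called on these same libraries, this describes them only. Among the uncalled genes viewed by run, Per2 and Il6 kept their direction too. Arntl and Cry1 turned in run 5 (log2 differences of 0.28 and 0.12), and Per1 had -0.22, 0.19 and 0.16 in runs 2, 4 and 5. Dbp averaged 84.6 against 26.3 FPKM in run 2 and 63.7 against 13.8 FPKM in run 4 (combination against anti-IL-6, log2 differences of 1.86 and 2.14). In run 5 the lone libraries had 18.5 and 18.2 FPKM. Tef had log2 differences of 0.91, 0.84 and 0.48 in runs 2, 4 and 5. Runs 2 and 4 alone, with the run as a term, gave 1 call, Dbp.

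The other 6 called genes are not listed clock genes. Atg14 (ENSMUSG00000037526.7), a subunit of the lipid kinase complex that starts autophagosomes, had a narrow spread, with 4.42, 4.93 and 5.15 FPKM as its lowest, median and highest value in the combination group, against 3.56, 4.17 and 4.83 FPKM in the anti-IL-6 group. The difference was small, at 0.20 ± 0.035 on the log2 scale (limma adjusted p = 0.00408), and all 13 combination libraries exceeded the anti-IL-6 median. Hdac11 (ENSMUSG00000034245.10), the class IV histone deacetylase, averaged 6.62 ± 0.82 FPKM in the combination group and 4.90 ± 1.14 FPKM in the anti-IL-6 group (log2 difference 0.39 ± 0.082, limma adjusted p = 0.0258). Leo1 (ENSMUSG00000042487.6), a subunit of the PAF1 complex that travels with RNA polymerase II, had 10.2, 13.0 and 15.3 FPKM in the combination group, against 13.8, 15.4 and 17.7 FPKM in the anti-IL-6 group. Leo1 had a log2 difference of -0.265 ± 0.049 (limma adjusted p = 0.00408), with 10 combination libraries below every anti-IL-6 library. Akirin1 (ENSMUSG00000023075.9), a nuclear protein of the akirin family, averaged 13.5 ± 1.58 FPKM in the combination group and 16.9 ± 2.16 FPKM in the anti-IL-6 group, a log2 difference of -0.30 ± 0.066 (limma adjusted p = 0.0375). Rrs1 (ENSMUSG00000061024.8), needed to assemble the large ribosomal subunit, averaged 11.8 ± 1.36 FPKM in the combination group and 14.6 ± 1.36 FPKM in the anti-IL-6 group (log2 difference -0.28 ± 0.062, limma adjusted p = 0.0375). Atg14 lies on chromosome 14 (47540893 to 47570649), Hdac11 on chromosome 6 (91156665 to 91174692), Leo1 on chromosome 9 (75441524 to 75466432), Akirin1 on chromosome 4 (123734559 to 123750345) and Rrs1 on chromosome 1 (9545408 to 9547455).

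Fosl1 (FRA-1, ENSMUSG00000024912.5), a Fos-family partner of Jun in AP-1, had 0.833, 1.71 and 3.56 FPKM as its lowest, median and highest value in the combination group, against 2.31, 3.73 and 9.43 FPKM in the anti-IL-6 group. All 13 combination libraries lay below the anti-IL-6 median, and the log2 difference was -0.85 ± 0.180 (limma adjusted p = 0.0258). Its mean was 2.11 FPKM in combination paws, 4.79 FPKM under anti-IL-6, 2.10 FPKM under anti-TNF, 2.14 FPKM under isotype and 1.63 FPKM without CIA. In the combination group Fosl1 was negatively related to the level of the skeletal muscle list (r = -0.83, rho = -0.83, permutation p = 0.00107 and 0.00076, adjusted p = 0.00333 and 0.00369, r = -0.91 without the 2 farthest, n = 13). In the anti-IL-6 group r was -0.13 and rho -0.12 (permutation p = 0.661 and 0.709, n = 13). With the muscle and epidermis levels as covariates the log2 difference of Fosl1 was -0.72 (limma adjusted p = 0.0585). Of the 21 tested genes of the AP-1 and immediate early list, Fosl1 was the 1 called (0 higher, 1 lower), while 21 of 21 differences lay below 0 and 10 had an unadjusted p under 0.05 (background 9.14% lower). The list median was -0.32 against -0.045 over all genes. With mouse number as a term, 9 of these differences lay above 0 and 12 below, 2 had an unadjusted p under 0.05, and the median was -0.07, as over all genes (-0.065). With the muscle and epidermis terms the median was -0.14, with 7 at an unadjusted p under 0.05. Myc averaged 28.0 ± 4.23 FPKM in the combination group and 36.1 ± 5.75 FPKM in the anti-IL-6 group (log2 difference -0.36, limma adjusted p = 0.188), and Fosl2 had a difference of -0.39 (limma adjusted p = 0.247).

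How many of the 14 calls were made depends on single mice. Leaving out 1 library at a time gave 7 to 22 calls in 26 fits. Among anti-IL-6 mice, the count was 7 on removal of replicate 4 or 13, 8 on removal of replicate 9, 9 on removal of replicate 12 and 22 on removal of replicate 7. Among combination mice, it was 8 on removal of replicate 8 or 13 and 9 on removal of replicate 1, 6, 10 or 12. Dbp, Tef, Atg14, Nr1d2, Per3, Leo1 and Npas2 were called in 26 of 26 fits, Nr1d1 in 23, Hdac11 in 17, Fosl1 in 15, Bhlhe41 and Nfil3 in 14 each, Rrs1 in 10 and Akirin1 in 9. Anti-IL-6 replicate 13 was the library least like the others (median r of 0.891 with them), had the highest neutrophil level of its group and the lowest epidermis level, and without it the E-box list had 4 calls and the antiphase list 1. With the 2 compared groups fitted alone there were 3 calls, all of them higher.

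None of the 6 genes for the antibody targets and their receptors passed the test. Il6 itself had 0.120, 0.280 and 6.16 FPKM as its lowest, median and highest value in the combination group, against 0.142, 1.98 and 15.8 FPKM in the anti-IL-6 group, and the groups overlapped widely. The log2 difference of Il6 was -0.91 ± 0.412, with an interval of -1.74 to -0.089 (unadjusted p = 0.0307, limma adjusted p = 0.393). Tnf averaged 1.76 ± 0.991 FPKM in the combination group and 2.08 ± 0.940 FPKM in the anti-IL-6 group, a log2 difference of -0.165 with an interval of -0.51 to 0.179. The TNF receptors Tnfrsf1a and Tnfrsf1b had differences of -0.18 and -0.195, and the IL-6 receptor chains Il6ra and Il6st -0.04 and -0.10 (limma adjusted p of 0.498 to 0.848 for the 4 receptors). Il6 followed the level of the mature neutrophil list in both groups, with r of 0.88 and rho of 0.87 in the combination group and r of 0.89 and rho of 0.88 in the anti-IL-6 group (permutation p = 4e-05 and 0.00017, and 8e-05 and 0.00025, adjusted p = 0.0006 and 0.0017, and 0.00072 and 0.00187, n = 13 each). Without the 2 farthest mice r was 0.77 and 0.84.

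Targets downstream of the cytokines had differences below 0 without calls. In the IL-6 and STAT3 list, 0 of 19 tested genes were called, 19 of 19 differences lay below 0 (65.97% over all genes), and the median was -0.29. Socs3, the feedback inhibitor of this pathway, averaged 21.8 ± 11.7 FPKM in the combination group and 42.8 ± 33.8 FPKM in the anti-IL-6 group (log2 difference -0.73 ± 0.307, limma adjusted p = 0.362). In the TNF and NF-kB list, 0 of 26 were called, 24 differences lay below 0, and the median was -0.295. Ptgs2 (COX-2) and Ccl20, a chemokine for Th17 cells, had differences of -0.46 and -0.84 (limma adjusted p = 0.31 and 0.313). Most neutrophil markers had differences of the same sign. Of 18 mature neutrophil markers 17 were tested and 0 called, 16 differences lay below 0, the median was -0.38, and the mean level of the list ran from 1.24 through a median of 2.44 up to 4.21 in the combination group, against 1.29, 2.80 and 5.11 in the anti-IL-6 group (log2(FPKM + 1) scale). With muscle and epidermis levels as covariates the medians were -0.01 for the IL-6 and STAT3 list, -0.075 for the TNF and NF-kB list and 0.11 for mature neutrophils. No listed neutrophil marker was at 0 throughout. With the neutrophil level as a term, the IL-6 and STAT3 median was -0.11, with 3 of 19 differences above 0, and the TNF and NF-kB median was -0.15. Without anti-IL-6 replicate 13 the medians were -0.18 for the IL-6 and STAT3 list (17 of 19 below 0), -0.21 for the TNF and NF-kB list and -0.20 for mature neutrophils.

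Genes of proliferation and ribosome assembly showed small differences of the same sign. All 30 listed cell cycle genes were tested, 0 were called, 30 of 30 differences lay below 0 (range -0.43 to -0.12), and 22 had an unadjusted p under 0.05, against a background of 9.14%. Rrm2, a subunit of ribonucleotide reductase, averaged 13.8 ± 2.31 FPKM in the combination group and 19.1 ± 3.97 FPKM in the anti-IL-6 group (log2 difference -0.43 ± 0.120, limma adjusted p = 0.188). Cdk1, the mitotic kinase, had a difference of -0.40 and Foxm1, a mitotic transcription factor, -0.28 (limma adjusted p = 0.222 and 0.223). In the ribosome biogenesis list, 1 of 30 was called (Rrs1, lower), 30 of 30 differences lay below 0, 17 had an unadjusted p under 0.05, and the median was -0.135. Utp4 and Ddx21, factors of ribosomal RNA processing, each had a difference of -0.20 (limma adjusted p = 0.145 and 0.289). The cell cycle differences lay below 0 for 30 of 30 genes with index run, neutrophil level, muscle and epidermis levels or mouse number as a term, without anti-IL-6 replicate 13 and under median-of-ratios scaling. Their size was less steady, with a median of -0.15 and 14 genes at an unadjusted p under 0.05 with the muscle and epidermis terms, and a median of -0.36 and 10 such genes with mouse number, against -0.25 and 22 without these terms. In the ribosome biogenesis list the number at an unadjusted p under 0.05 was 6 with the muscle and epidermis terms and 19 with mouse number. Under median-of-ratios scaling 29 of 30 ribosome biogenesis differences lay below 0, and 14 had an unadjusted p under 0.05. That scaling moved the median of all genes to -0.009.

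Skeletal muscle genes had the highest list median, though none was called. The list had 19 of 20 members tested, 0 called, 19 of 19 differences above 0 and a median of 0.91, and its level ran from 6.51 through a median of 8.56 up to 9.48 in the combination group, against 5.20, 7.66 and 9.07 in the anti-IL-6 group (log2(FPKM + 1) scale). Myh1, a fast myosin heavy chain, averaged 817 ± 550 FPKM in the combination group and 477 ± 415 FPKM in the anti-IL-6 group (limma adjusted p = 0.422). The oxidative phosphorylation list had 0 of 20 called, 20 of 20 differences above 0 and a median of 0.18, which was -0.07 with the muscle and epidermis terms. With those terms limma called 27 genes (16 higher, 11 lower), 12 of them among the 14, and in the clock lists 7 were higher and 4 lower. Dbp and the muscle level had r of -0.32 and rho of -0.36 in the combination group (permutation p = 0.291 and 0.229, adjusted p = 0.437 and 0.327, r = -0.12 without the 2 farthest) and r of 0.28 and rho of 0.30 in the anti-IL-6 group (permutation p = 0.348 and 0.315, adjusted p = 0.474 and 0.43, r = 0.42 without the 2 farthest, n = 13 each).

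**Figure D5:**
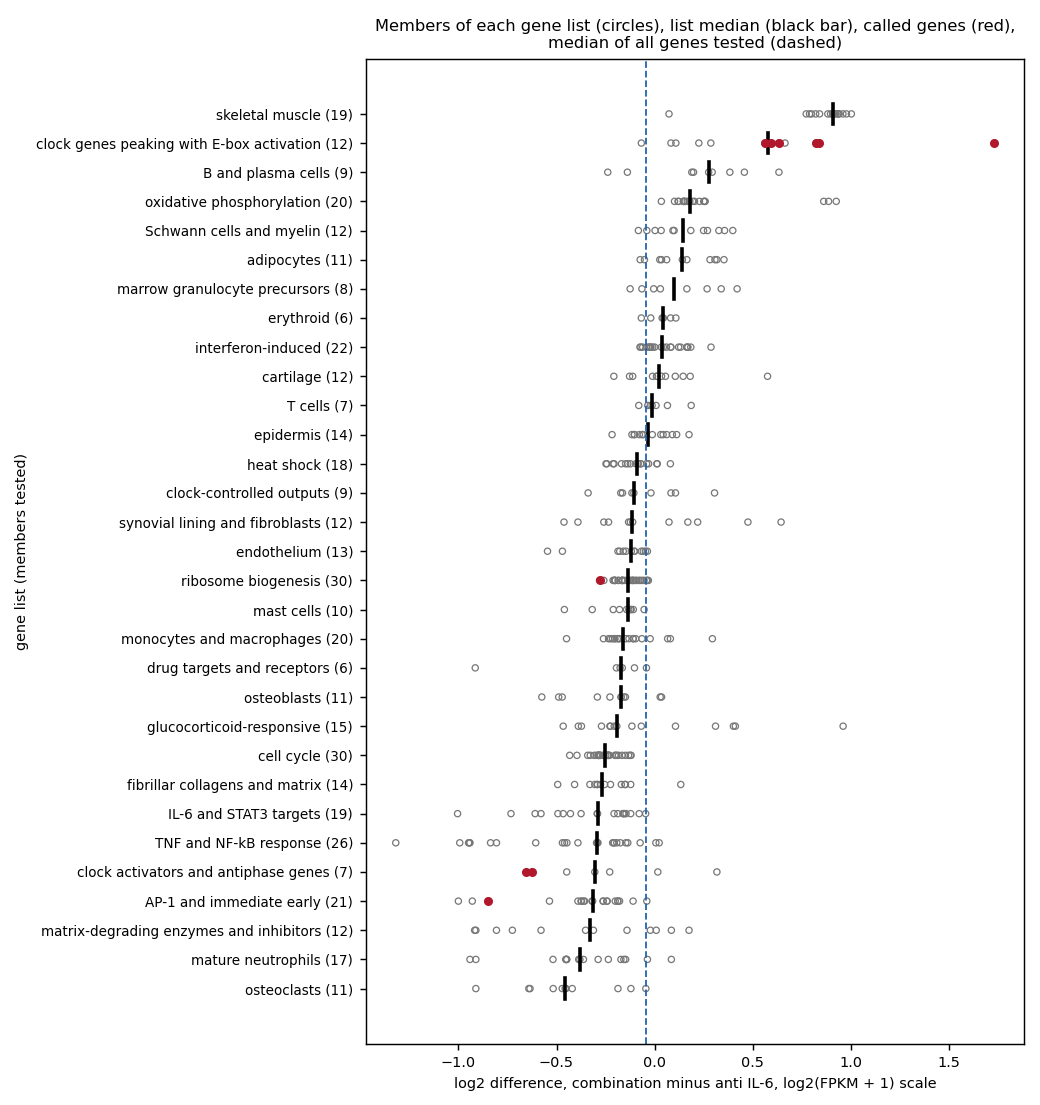
Log2 differences (combination minus anti IL-6, log2(FPKM + 1) scale) of the tested members of 31 gene lists as circles, with list medians as black bars, called genes in red and the median of all 14468 genes (-0.045) as a dashed line. Skeletal muscle has the highest median (0.91), the E-box clock list follows (0.58), and osteoclasts have the lowest (-0.46).

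Joint and immune cell lists gave no further call. Osteoclast genes had 11 of 11 tested differences below 0 with a median of -0.46, which was -0.03 with the muscle and epidermis terms. Matrix-degrading enzymes had a median of -0.33, with Adamts5, a cartilage aggrecanase, at 3.60 ± 0.83 FPKM in the combination group and 5.00 ± 1.84 FPKM in the anti-IL-6 group (log2 difference -0.35, limma adjusted p = 0.314). Monocyte and macrophage genes had a median of -0.16, endothelium -0.12, mast cells -0.14, osteoblasts -0.17, synovial lining and fibroblasts -0.12, and fibrillar collagens -0.27. Of these 8 lists, mast cells and osteoclasts alone had a median below 0 in all 7 alternative fits for which lists were counted (scaling, the 4 terms and the 2 removals of libraries). With the muscle and epidermis terms the medians were 0.16 for matrix-degrading enzymes, 0.29 for fibrillar collagens, 0.23 for osteoblasts, 0.13 for synovial lining and fibroblasts, 0.04 for monocytes and macrophages and 0.01 for endothelium. With index run as a term they were 0.15 for fibrillar collagens and 0.21 for osteoblasts, and without anti-IL-6 replicate 13 the monocyte and macrophage median was -0.004 and that of osteoclasts -0.28. T cells, erythroid genes, cartilage and epidermis, whose signs also turned between settings, had medians between -0.04 and 0.04, as had the 22 interferon-induced genes (0.04). B and plasma cells (0.28), adipocytes (0.14), Schwann cells and myelin (0.14) and marrow granulocyte precursors (0.10) had medians above 0, which for adipocytes was -0.06 with the muscle and epidermis terms and for Schwann cells -0.02 with mouse number. The B and plasma cell level was 5.04 in combination replicate 6 and at most 3.24 in the rest of that group. Its group medians were 2.61 in the combination group and 2.42 in the anti-IL-6 group (log2(FPKM + 1) scale). Glucocorticoid-responsive genes were split. Klf9, Tsc22d3 (GILZ) and Zbtb16, which glucocorticoids induce, had differences of 0.40, 0.31 and 0.41 (limma adjusted p = 0.26, 0.305 and 0.31), Per1, likewise induced by them, stood at -0.07, and the median over 15 genes was -0.19. Heat shock genes had a median of -0.09, with 15 of 18 below 0. Markers of muscle, epidermis and cartilage, which a whole paw should hold, were present in both groups, none of them at 0 throughout.

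Just outside the threshold stood the genes with the smallest p among those not called. Rere, a transcriptional corepressor, had a log2 difference of 0.18, Txnip, the thioredoxin-binding arrestin that limits glucose uptake, 0.60, Rhebl1, a GTPase related to Rheb, 0.40, and Pik3ip1, an inhibitor of phosphoinositide 3-kinase, 0.46. Osgin1, induced by oxidative stress, stood at -0.40, the histone variant gene H2afz at -0.39, Kti12 at -0.19, Arntl at -0.45 and Zbtb21 at -0.25. Their limma adjusted p ran from 0.0625 (Rere and Txnip) to 0.142 (Zbtb21 and Pik3ip1). Txnip had 136.6, 221.8 and 335.5 FPKM as its lowest, median and highest value in the combination group, against 85.1, 139.5 and 207.3 FPKM in the anti-IL-6 group, with overlap between them.

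Depth, read from the steps of low FPKM values, was 43.2 to 53.2 M fragments in the combination group (median 47.4 M) and 40.1 to 53.9 M in the anti-IL-6 group (median 48.6 M). There were 0 pairs of libraries with the same values throughout, and no pair correlated above 0.993. Titles give each library its own mouse number, so p-values reflect the spread between mice.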

How the data were processed

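Paired-end RNA sequencing of whole front paws was done with TruSeq Stranded mRNA libraries on a NovaSeq, per the labels' protocols. The authors deposited 1 table of FPKM values with a column per library; no header names the unit, which was taken from how the values behave. DESeq2 is named without a version in the submitters' processing notes. The sources used here do not name the aligner, build, annotation or use of strand in counting, so reads of overlapping or antisense genes may have been counted together. Of the features, 52244 are Ensembl genes and 1187 miRBase hairpins (0 tested). Coordinates come from GENCODE M21 (GRCm38), which 51027 identifiers match with their version. Fosl1's does not match, so no position is given.

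The FPKM values were taken to log2(FPKM + 1), which understates changes of low genes. In R 4.3.3, limma 3.58.1 (prior trended and robust) fitted all 56 libraries with a mean per group (51 residual degrees of freedom), after features with a mean of at least 1 FPKM in either compared group were kept. P-values are two-sided, Benjamini-Hochberg adjusted over 14468 genes, threshold 0.05. The fit was tested on simulated data. Depth was read from whole-fragment steps in low values of genes of at least 400 bases; 70.4% to 76.7% of values were whole multiples within 0.05 of a step, so counts were not rebuilt. Within-group relations used 100000 permutations (Python 3.11.15, numpy 2.4.6, scipy 1.17.1, pandas 2.3.3, matplotlib 3.10.9) and adjustment over 30 relations. The 2 relations of mouse number in the anti-TNF and isotype groups were added later.

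The comparison and the 31 gene lists were chosen with earlier results of these data known. Named genes are all called genes, the 6 drug targets and receptors, both clock lists, members with the 3 smallest p of other lists where the text describes them, the 10 smallest p not called, and the 10 genes most and 5 least like Dbp; some genes that the rule takes in are not reported here. Alternatives were pseudocounts of 0.1 and 10, 2 other filters, the compared groups alone, median-of-ratios scaling, library weights, terms for index run, tissue and neutrophil levels, and leaving out each library. Added after seeing the data were fits without the 2 least correlated libraries, with index runs 2 and 4 alone, and with mouse number as a term.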

Additional observations from a re-analysis of the deposited data

How the results depend on the processing

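The 14 called genes kept their direction in all 39 alternative fits, and pseudocounts of 0.1 and 10 called the same 14 genes. The number of calls was 7 with no filter, 3 with the compared groups alone, 27 with muscle and epidermis levels as covariates, 22 with a weight per library, 6 without the 2 least correlated libraries (anti-IL-6 replicates 13 and 6), 1 with index runs 2 and 4 alone and 0 with mouse number as a covariate (limma, 681 at an unadjusted p under 0.05); leaving out each library gave 7 to 22. The cause was not tested, beyond there being more genes or fewer mice in some fits. Uncalled drug target genes changed sign with the muscle and epidermis terms (Tnf 0.036, Tnfrsf1a 0.004, Tnfrsf1b 0.129, Il6ra 0.032, Il6st 0.049), with the neutrophil term (Tnfrsf1b 0.041, Il6st 0.003), without the 2 least correlated libraries (Tnfrsf1b 0.029, Il6st 0.011) and with index runs 2 and 4 alone (Il6st 0.003). Scaling by median of ratios gave 20 calls (12 higher, 8 lower), of which Leo1 was not 1 (adjusted p = 0.0808), and moved list medians by at most 0.043. No paired analysis was possible because the replicate numbers only count deposited libraries within a group, and no mouse is shared or matched between groups. Depth is known only approximately, so low FPKM values such as those of Il6 carry no counting interval.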
